A study of Mus musculus with 24 samples.

Results

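miR-103-3p and miR-107-3p, 2 of the 1009 miRNAs for which values were deposited, were followed through the mammary gland cycle of the mouse. They were taken by name (mmu-miR-103-3p and mmu-miR-107-3p), with no use of their levels. The glands came from 24 female C57BL/6 mice, an inbred strain, each with 1 small RNA library. The 4 stages held 6 mice each and were adult mice at 10 weeks of age (W10), pregnant mice at day 18 of gestation (P18), lactating mice at day 7 (Lac7) and involuting mice at day 3 (Inv3). No genetic change or drug is stated for any group, and the groups are named by reproductive stage, with which age and litters go along. RNA was taken from ground whole glands, abdominal and inguinal together, so that epithelium, fat, vessels, lymph node and adjoining muscle can enter the same value. The series' design text gives the days of lactation and involution the other way round, and the days on the libraries' labels were used.

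A miRNA is a short RNA that binds mRNAs and lowers their translation or stability, and the bases near its 5′ end, the seed, largely decide which mRNAs it binds. miR-103 and miR-107 are paralogs cut from introns of the Pank genes, which encode pantothenate kinases, the enzymes that begin the synthesis of coenzyme A, the carrier of acyl groups in fatty acid synthesis and oxidation. In mice, miR-103 and miR-107 are known for lowering insulin sensitivity in liver and adipose tissue, with caveolin-1, a protein of the adipocyte membrane, among their targets. The mammary gland lies in a fat pad, whose adipocytes lose lipid during lactation and fill again during involution, while the lactating epithelium makes milk fat. By their first bases both belong to the miR-15 and miR-107 group, whose other members, such as miR-16 and miR-322, are known for restraining the cell cycle.

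The mature sequences show how alike the paralogs are and what separates them in a library. They are printed from 5′ to 3′ from RefSeq's table for GRCm38.p6, with the seed, bases 2 to 8, in capitals.
miR-103-3p: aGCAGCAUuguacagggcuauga
miR-107-3p: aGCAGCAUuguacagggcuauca
Both have 23 bases, and they differ at 1 of them, G22C (the base of miR-103-3p, the position from the 5′ end, the base of miR-107-3p), so that the base at position 22 alone carries the distinction. A read that ended before it would match both, and how the counting assigned such reads is not given in the sources used here. No other mature miRNA among the 1679 in the table has this seed.

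miR-103-3p is made from a pair of genes and miR-107-3p from a single other gene. The hairpins are shown with the 3p arm in capitals, since their other bases tell the genes apart while the counted arm does not.
Mir103-1: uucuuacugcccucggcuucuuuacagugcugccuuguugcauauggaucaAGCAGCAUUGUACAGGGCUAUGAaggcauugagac
Mir103-2: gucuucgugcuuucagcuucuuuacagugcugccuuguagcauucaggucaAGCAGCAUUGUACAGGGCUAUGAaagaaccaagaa
Mir107: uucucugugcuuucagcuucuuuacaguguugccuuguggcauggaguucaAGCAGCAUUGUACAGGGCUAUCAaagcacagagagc
On GRCm38, Mir103-1 lies at chr11:35782396-35782481 on the plus strand in Pank3, Mir103-2 at chr2:131288052-131288137 on the plus strand in Pank2, and Mir107 at chr19:34820687-34820773 on the minus strand in Pank1. Each lies on the strand of its host gene, in intron 5 of a coding transcript of 7 exons, and under no annotated exon of that gene. Aligned end to end, Mir103-1 and Mir103-2 were identical at 80.2% of positions, Mir103-1 and Mir107 at 80.5%, and Mir103-2 and Mir107 at 83.9%. The 3p arm was the same in Mir103-1 and Mir103-2, so the level of miR-103-3p is the sum over Pank3 and Pank2, and their parts cannot be told apart.

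The 5p arms were almost absent. miR-103-2-5p had 3 reads over the 6 adult mice, none in pregnant or lactating mice and 5 in involuting mice. miR-107-5p had 1 read in adult and 1 in pregnant mice and none later, and miR-103-1-5p is not analysed here. The description that follows therefore concerns the 3p arms.

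The deposited values are RPM, reads scaled so that all listed miRNAs of a library sum to 1e6. They are therefore shares, and a paralog can gain RPM where abundant miRNAs lose reads. Libraries held 660346 to 1165321 reads, with a median of 933924, and the lactation libraries were shallow, at 660346 to 751890 reads. Every library had at least 19299 reads of miR-103-3p and 784 of miR-107-3p. Counting error was 0.468% to 0.72% of the value for miR-103-3p and 2.46% to 3.57% for miR-107-3p, while the SD between mice of a stage was 8.07% to 13.9% and 8.40% to 16.4% of the mean, so the spread between mice was the larger error.

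miR-103-3p was among the most abundant miRNAs of the gland, at rank 6 to 10 by stage mean, and miR-107-3p stood at rank 49 to 58. Both were highest in lactation, and miR-103-3p was lowest in involution.

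For miR-103-3p, adult mice ranged from 30107 to 43129 RPM with a median of 32980.4, and pregnant mice from 34848 to 42573 RPM with a median of 35374. Lactating mice ranged from 46392 to 61038 RPM with a median of 52753, and involuting mice from 20548 to 29399 RPM with a median of 27067. Every lactating mouse was thus above every mouse of the other stages, and every involuting mouse was below every mouse of the other stages. The stage means were 34069 ± 4749, 36768 ± 2968, 53504 ± 5012 and 25849 ± 3430 RPM (SD, n = 6 each), or 3.41%, 3.68%, 5.35% and 2.58% of the miRNA reads.

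For miR-107-3p, adult mice ranged from 991 to 1641 RPM with a median of 1449, and pregnant mice from 1024 to 1377 RPM with a median of 1083. Lactating mice ranged from 1489 to 2011 RPM with a median of 1823, and involuting mice from 1008 to 1245 RPM with a median of 1179. Every lactating mouse was above every pregnant and involuting mouse, but lactating and adult mice overlapped, and the adult range held the lowest value of the 24 mice. The stage means were 1410.1 ± 231 RPM in adult, 1151 ± 146 in pregnant, 1795 ± 211 in lactating and 1156 ± 97.1 in involuting mice (SD, n = 6 each).

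**Figure D1:**
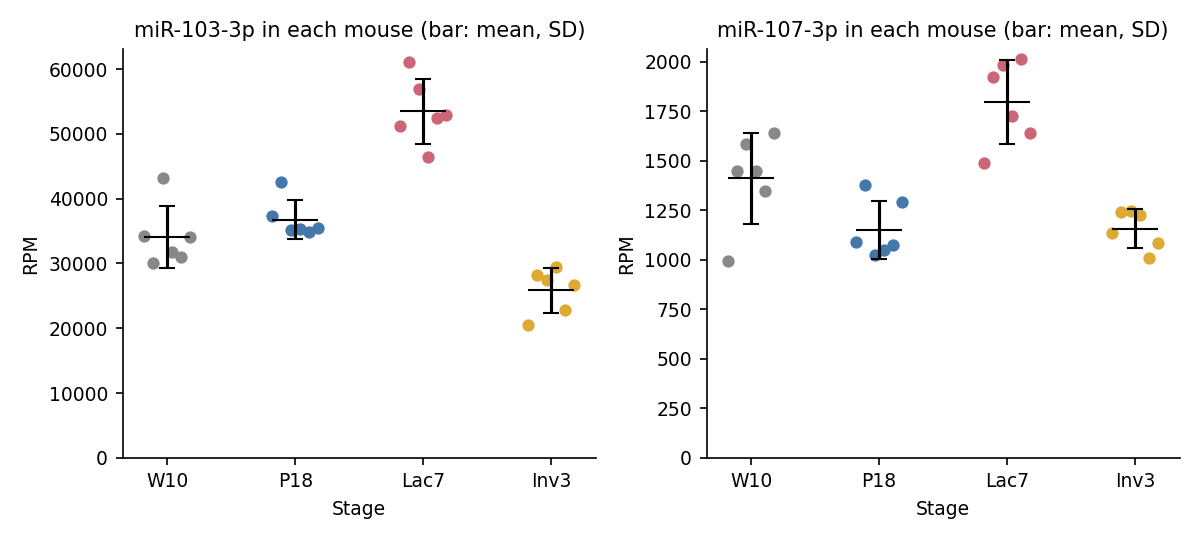
Level of miR-103-3p (left) and miR-107-3p (right) in RPM on a linear axis from 0, with 1 point per mouse, 6 mice at each stage, and a bar for the mean with its SD. The lactating mice lie highest in both panels, at 46392 to 61038 RPM and 1489 to 2011 RPM, and the 6 involuting mice lie lowest for miR-103-3p.

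The change over the cycle was smaller than that of most other abundant miRNAs. The highest stage mean of miR-103-3p was 2.07 times its lowest, and that of miR-107-3p 1.56 times. Of the miRNAs, 188 reached a stage mean of 100 RPM. The median of this quotient over them was 2.70, and 30.9% of them varied less than miR-103-3p and 10.6% less than miR-107-3p.

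Stages were compared with limma on log2(RPM + 1), for the 544 miRNAs whose mean reached 1 RPM in some stage. A miRNA is said to have risen or fallen where the two-sided Benjamini-Hochberg adjusted p over those 544 was under 0.05. The standard error of each log2 fold change below was 0.11 for miR-103-3p and 0.12 for miR-107-3p. Comparisons that use the same stage share its 6 mice.

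Between adult and pregnant mice, neither paralog passed the test. The log2 fold change of miR-103-3p was 0.12 (adjusted p = 0.39) and that of miR-107-3p was -0.28 (adjusted p = 0.061), with a 95% interval of -0.53 to -0.04 before adjustment. In this comparison 12.1% of the tested miRNAs rose and 29.4% fell. The median log2 fold change of the tested miRNAs was -0.32, so relative to it miR-103-3p was higher by 0.43 and miR-107-3p by 0.03. The mice of these stages overlapped for both paralogs. With RPM the call on miR-107-3p rested on single mice. This miRNA fell without adult mouse 1, its lowest value (-0.38, adjusted p = 0.0064), and also without pregnant mouse 2 (-0.34, adjusted p = 0.032) or pregnant mouse 6 (-0.32, adjusted p = 0.044).

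From pregnancy to lactation, both paralogs rose by a like amount. miR-103-3p rose by 0.54 on the log2 scale, or 1.45-fold (adjusted p = 0.00012), and miR-107-3p by 0.64, or 1.56-fold (adjusted p = 8.3e-05). Only 13.8% of the tested miRNAs rose here, against 31.4% that fell, and in 9.93% every lactating mouse was above every pregnant mouse, as it was for both paralogs. The median log2 fold change of the tested miRNAs was -0.34, so relative to it miR-103-3p was higher by 0.88 and miR-107-3p by 0.98.

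From lactation to involution, both fell, and miR-103-3p fell further. Its log2 fold change was -1.06, with involuting mice 2.08-fold lower (adjusted p = 5.3e-09), and that of miR-107-3p was -0.63, or 1.55-fold lower (adjusted p = 0.00011). In this comparison 18.9% of the tested miRNAs fell and 27.9% rose, and 10.3% fell at least 2-fold, among them miR-103-3p. For 11.2% of the tested miRNAs, and for both paralogs, every involuting mouse was below every lactating mouse. Against the median of the tested miRNAs, which was 0.28, the differences were -1.34 and -0.91.

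Lactating mice were also above adult mice. miR-103-3p was higher by 0.66 on the log2 scale, or 1.58-fold (adjusted p = 4.3e-06), and miR-107-3p by 0.36, or 1.28-fold (adjusted p = 0.011). In this comparison 18.2% of the tested miRNAs rose and 48.5% fell, and their median was -0.66. The mice did not overlap for miR-103-3p, as for 12.3% of the tested miRNAs that were higher, whereas for miR-107-3p they did.

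Involuting mice differed from adult mice in miR-103-3p, by -0.40 on the log2 scale (adjusted p = 0.0034), with no overlap, as for 12.1% of the tested miRNAs that were lower. miR-107-3p differed by -0.27 and did not pass the test (adjusted p = 0.076), but passed it without adult mouse 1 (-0.37, adjusted p = 0.0088). Here 7.90% of the tested miRNAs rose and 31.2% fell, and their median was -0.41, so that relative to the median miR-103-3p moved by 0.01 and miR-107-3p by 0.14. The fall of miR-103-3p below its adult level was thus as large as the shift of the typical miRNA.

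Against pregnant mice, involuting mice were lower in miR-103-3p by -0.52 on the log2 scale (adjusted p = 0.00049), with no overlap, as for 8.27% of the tested miRNAs that were lower. The log2 fold change of miR-107-3p was 0.01 (adjusted p = 0.97), with a 95% interval of -0.24 to 0.26. In this comparison 10.8% of the tested miRNAs rose and 17.6% fell.

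Because RPM are shares of a fixed total, the values were also scaled by DESeq2 size factors, which set the typical miRNA level. The means of miR-103-3p were then 27427 in adult, 35242 in pregnant, 63329 in lactating and 27009.7 in involuting mice, and those of miR-107-3p were 1131, 1100.3, 2124 and 1209. The peak in lactation was larger on this scale. The log2 fold changes from pregnancy to lactation were 0.84 and 0.95, those from lactation to involution -1.23 and -0.81, and those of lactating against adult mice 1.21 and 0.91, all with limma adjusted p of at most 7.2e-07. Involuting mice stayed below pregnant mice in miR-103-3p, by -0.39 (adjusted p = 0.0061). The comparisons of adult with pregnant and with involuting mice depended on the scale. miR-103-3p rose from adult to pregnant mice by 0.37 with size factors (adjusted p = 0.0060), while miR-107-3p was at -0.03 (adjusted p = 0.83). In miR-103-3p involuting and adult mice no longer differed past the test, at -0.02 (adjusted p = 0.91). The share of changed miRNAs that were higher moved with this scaling as well. It went from 29.2% to 43.5% between adult and pregnant mice and from 30.5% to 44.5% between pregnant and lactating mice. Between adult and lactating mice it went from 27.3% to 38.9%, and between adult and involuting mice from 20.2% to 43.8%. From lactation to involution it went down, from 59.6% to 51.0%, and between pregnant and involuting mice up, from 38.1% to 47.2%.

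The ratio of the paralogs within a library does not depend on the scaling, and it asks whether they moved in step. In adult mice, miR-103-3p was 20.8 to 34.6 times as abundant as miR-107-3p (median 22.5), and in pregnant mice 27.5 to 34.4 times (median 33.0). In lactating mice it was 26.1 to 34.4 times as abundant (median 30.2), and in involuting mice 18.1 to 24.6 times (median 22.7). Every involuting mouse had a lower ratio than every pregnant or lactating mouse. Since the paralogs differ at a single base near the 3′ end, this ratio also carries any difference between stages in how completely reads reached that base, which was not tested.

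Between stages, the log2 ratio was compared with a two-sided exact permutation test that took every split of the 12 mice into 6 and 6, adjusted over 6 comparisons. The smallest p this design allows is 0.0022. From lactation to involution the log2 ratio fell by 0.43 (exact p = 0.0022, adjusted p = 0.0065), and involuting mice were below pregnant mice by 0.53 (exact p = 0.0022, adjusted p = 0.0065). miR-103-3p thus fell more than miR-107-3p when lactation ended. From pregnancy to lactation, where both rose, the difference was -0.10 with an exact p of 0.24. From adult to pregnant mice the log2 ratio rose by 0.40 (exact p = 0.024, adjusted p = 0.048), a call that was lost without any 1 of 10 of the 12 mice, with adjusted p of 0.056 to 0.078 by the same exact test. Lactating and adult mice differed by 0.30 (exact p = 0.063, adjusted p = 0.094), and by 0.40 without adult mouse 1 (adjusted exact p = 0.016), and involuting and adult mice by -0.13 (exact p = 0.40). miR-107-3p made up 4.01% of the reads of the pair in adult, 3.03% in pregnant, 3.25% in lactating and 4.32% in involuting mice.

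**Figure D2:**
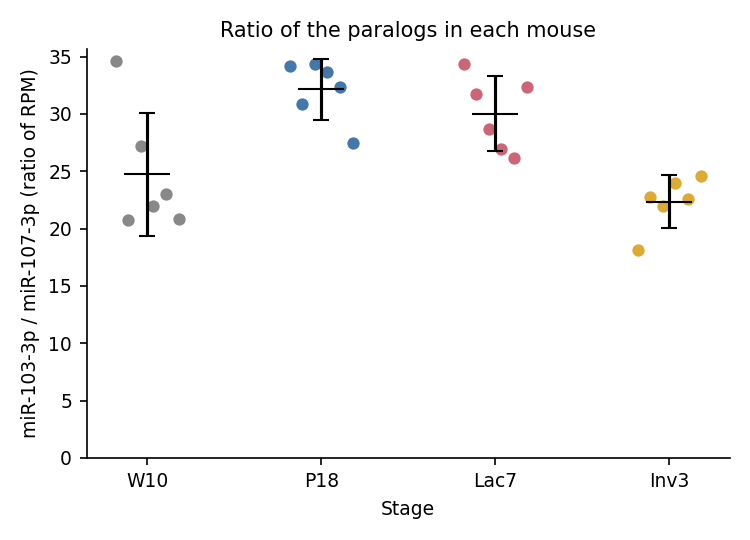
Ratio of miR-103-3p to miR-107-3p (RPM over RPM) in each mouse, on a linear axis from 0, with 6 mice per stage and a bar for the mean with its SD. The 6 involuting mice lie at 18.1 to 24.6, below the 12 pregnant and lactating mice, and the highest adult mouse lies at 34.6.

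Adult mice 1 and 3 had the highest ratios of their stage, 34.6 and 27.2. The same mice had the lowest summed level of 5 leukocyte markers (miR-142a-3p, miR-142a-5p, miR-150-5p, miR-223-3p and miR-155-5p), at 25590.3 and 28081 RPM, against 43418 to 48957 RPM in the other adult mice. Other marker lists also set 1 of these mice apart. Adult mouse 1 had the highest stromal sum of its stage (211305 RPM), and adult mouse 3 the lowest skeletal muscle (2378 RPM) and red blood cell (678 RPM) sums. The part of these markers in the ratio was not tested, and these mice and the leukocyte list were singled out after their values were seen.

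In the comparisons that involve lactation, most of the kin by sequence moved the other way. The 7 other miRNAs of the miR-15 and miR-107 group share the run AGCAGC with the paralogs, shown in capitals, but begin it 1 base later, so that their seeds are shifted against those above.
miR-103-3p: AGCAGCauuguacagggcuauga
miR-16-5p: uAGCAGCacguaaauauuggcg
miR-15a-5p: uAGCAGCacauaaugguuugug
miR-15b-5p: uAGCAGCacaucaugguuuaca
miR-195a-5p: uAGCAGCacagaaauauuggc
miR-322-5p: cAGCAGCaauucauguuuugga
miR-497a-5p: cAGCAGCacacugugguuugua
miR-503-5p: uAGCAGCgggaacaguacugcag
Of the 854 listed miRNAs with a sequence in the table, 10 (1.17%) hold this run within their first 10 bases, and they are the 2 paralogs, these 7 and miR-195b, whose stage means were 0.717 to 1.94 RPM.

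From pregnancy to lactation, where the paralogs rose, all 7 kin fell, as did 31.4% of the tested miRNAs, with a median log2 fold change of -0.98 against -0.34 over the tested miRNAs. miR-16-5p, the most abundant of them, fell from 104628 ± 7722 to 63494 ± 3461 RPM (SD, n = 6), a log2 fold change of -0.72 (SE 0.09, adjusted p = 1.6e-07). miR-322-5p and miR-503-5p, which come from a single cluster, had log2 fold changes of -1.25 and -1.75. With size factors 6 of the 7 fell and miR-15a-5p did not pass the test (-0.20, adjusted p = 0.20), while both paralogs rose.

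From lactation to involution, 6 of the 7 kin rose and none fell, under RPM and under size factors alike, while 27.9% of the tested miRNAs rose with RPM. The median of the kin was 0.58 with RPM, against 0.28 over the tested miRNAs. miR-503-5p rose by 1.63 and miR-497a-5p by 1.36, while miR-15b-5p did not pass the test (-0.21, adjusted p = 0.36). Lactating mice were below adult mice in all 7 kin with RPM, beside 48.5% of the tested miRNAs, and in 5 with size factors. From adult to pregnant mice 2 of the 7 fell with RPM, miR-322-5p and miR-497a-5p, a share near the 29.4% of all tested miRNAs, and none rose. With size factors miR-15b-5p and miR-503-5p rose there and only miR-497a-5p fell. Against adult mice, involuting mice were lower in 5 of the 7 kin with RPM, as in miR-103-3p, and higher in none, beside 31.2% of the tested miRNAs that fell. With size factors 1 of the 7 was higher there and none lower. Against pregnant mice, involuting mice were lower in 1 of the 7 and higher in none on either scale, beside 17.6% that fell with RPM.

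**Figure D3:**
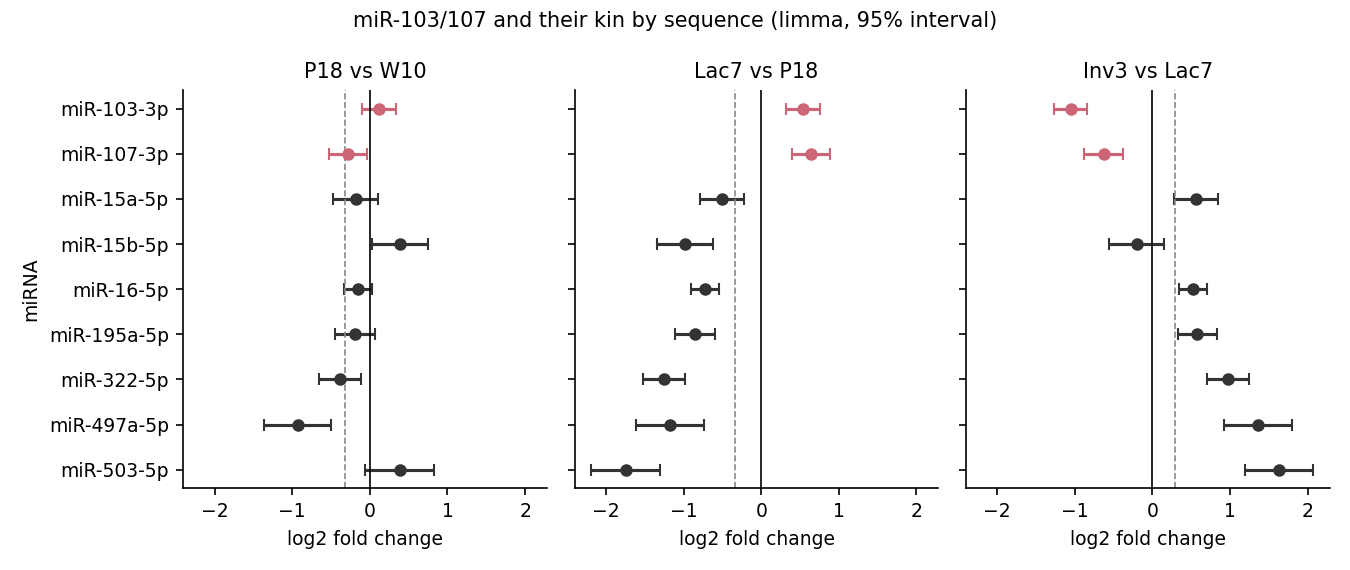
Log2 fold changes from limma with 95% intervals for miR-103-3p and miR-107-3p (red) and the 7 other miRNAs of the miR-15 and miR-107 group (black) in 3 consecutive comparisons of 6 mice with 6. The solid line marks 0 and the dashed line the median of the 544 tested miRNAs. In lactation the red points lie above 0 and all 7 black points below it, and from lactation to involution the red points lie below 0 and 6 black points above it.

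As a result the make-up of the group changed in lactation. miR-103-3p and miR-107-3p together held 18.9% to 25.1% of the reads of these 9 miRNAs in adult mice (median 20.7%) and 22.6% to 27.9% in pregnant mice (median 23.5%). In lactating mice they held 39.8% to 49.0% (median 43.9%), and in involuting mice 16.8% to 23.8% (median 21.3%). The lactating mice stood apart from all others, and the involuting mice were back in the adult range but for mouse 5, at 16.8%. This share is free of the library scaling and is given as a description, with no test. miR-16-5p was 2.75 to 3.96 times as abundant as miR-103-3p in adult mice and 0.966 to 1.42 times in lactating mice.

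**Figure D4:**
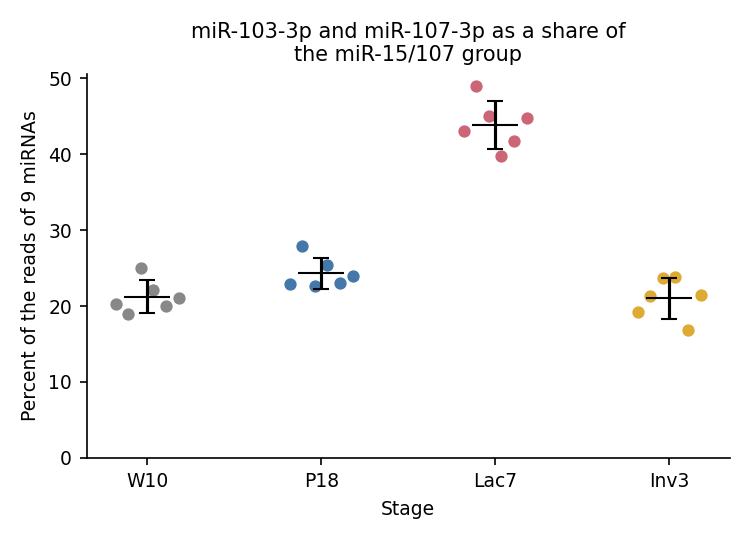
Share of the reads of 9 miRNAs of the miR-15 and miR-107 group that were miR-103-3p or miR-107-3p, in percent for each mouse on an axis from 0, with 6 mice per stage and a bar for the mean with its SD. The 6 lactating mice lie at 39.8% to 49.0% and the other 18 mice at 16.8% to 27.9%.

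Beside the paralogs, 22 other miRNAs linked to insulin, fat and lipid were read as a list, and all 22 were tested. They did not move as a block. From adult to pregnant mice 4 rose and 11 fell, beside 12.1% and 29.4% of all tested miRNAs. From pregnancy to lactation 8 rose and 6 fell, beside 13.8% and 31.4%, and from lactation to involution 9 rose and 8 fell, beside 27.9% and 18.9%. Their median log2 fold changes were -0.46, -0.12 and 0.13, against -0.32, -0.34 and 0.28 over all tested miRNAs. With size factors the counts in the list were 5 and 11, 9 and 1, and 7 and 8. Over all tested miRNAs the counts with size factors were 93 and 121, 105 and 131, and 126 and 121. The number that fell in lactation depended on the scale in both. In the list it was 6 with RPM and 1 with size factors, and over all tested miRNAs 171 and 131.

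Several of them shared the lactation peak. miR-375-3p, which restrains insulin secretion in pancreatic islets, rose from 32.1 ± 8.57 RPM in pregnant to 964 ± 73.1 RPM in lactating mice (log2 fold change 4.91, SE 0.49, adjusted p = 6.2e-09) and fell to 169.9 ± 152 RPM in involution (-3.10, adjusted p = 9.7e-06). miR-7a-5p, another miRNA of the islet, stood at 394 ± 53.8 RPM in lactating mice and fell by 1.41 on the log2 scale in involution (adjusted p = 4.1e-08). miR-33-5p lies in a gene for a master factor of cholesterol synthesis and limits cholesterol export. It rose by 1.86 in lactation (SE 0.30, adjusted p = 9.0e-06) and fell by 1.42 after it (adjusted p = 0.00024), with every stage mean under 100 RPM. miR-29c-3p, known for damping insulin signalling, rose by 0.98 in lactation, but from 883 RPM, since it had been at 2838 RPM in adult mice, and from lactation to involution it did not pass the test (-0.02, adjusted p = 0.95).

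miR-27b-3p, which holds back the forming of adipocytes, rose by 0.98 from adult to pregnant mice, where the paralogs did not pass the test with RPM, then by 0.47 in lactation to 37255 ± 2075 RPM (adjusted p = 0.0011), and fell by 0.57 in involution (adjusted p = 0.00013). miR-335-5p, which is raised in the fat of obese mice, rose by 1.84 from adult to pregnant mice, fell by 0.74 in lactation (adjusted p = 0.018) and fell by 1.05 in involution. From adult to pregnant mice miR-29a-3p fell by 2.03 and miR-365-3p, known from brown fat, by 1.88. miR-365-3p fell again in lactation by 0.80, as did miR-155-5p, a miRNA of activated leukocytes, by 1.37, and miR-155-5p rose by 1.70 in involution. With size factors the lactation values of miR-335-5p (-0.44, adjusted p = 0.15) and miR-365-3p (-0.50, adjusted p = 0.051) did not pass the test. miR-122-5p, the main miRNA of liver, rose by 3.96 in involution (SE 1.42, adjusted p = 0.023), but it was uneven between mice, at 0 to 626 RPM in involution and 0 to 2062 RPM in pregnancy.

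**Figure D5:**
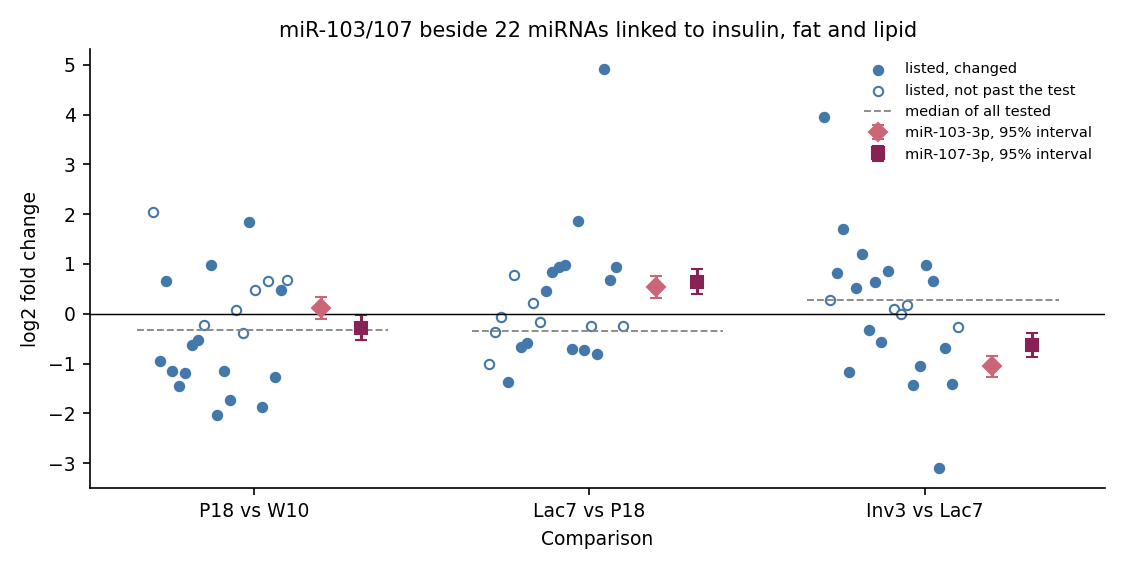
Log2 fold changes from limma in 3 consecutive comparisons for 22 miRNAs linked to insulin, fat and lipid (circles, filled where they passed the test) and for miR-103-3p (diamond) and miR-107-3p (square) with 95% intervals. Dashed lines mark the median of the 544 tested miRNAs. The listed miRNAs spread to both sides of 0 in each comparison, with miR-375-3p at 4.91 in lactation and at -3.10 in involution.

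The miRNAs most like the paralogs were sought over the 24 libraries among those that reached a stage mean of 100 RPM, by Pearson's r of log2(RPM + 1), as a description that includes the differences between stages. For miR-103-3p they were miR-672-5p (r = 0.91), let-7f-5p (0.87) and miR-7a-5p (0.83). miR-672-5p peaked in lactation at 119 ± 16.1 RPM, against 30.1 in adult, 49.4 in pregnant and 23.1 in involuting mice. let-7f-5p, a let-7 miRNA, went from 12563 in adult to 18298 in lactating and 11490.1 RPM in involuting mice. For miR-107-3p they were miR-185-5p (0.78), miR-101a-3p (0.76) and miR-144-3p (0.76), the last a miRNA of red blood cell precursors. The paralogs had an r of 0.73 with each other, which placed miR-107-3p at rank 16 for miR-103-3p and miR-103-3p at rank 5 for miR-107-3p. With size factors the r was 0.85 and the ranks were the same.

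Between mice of the same stage, the paralogs were only loosely tied. After the stage means were subtracted, Pearson's r over the 24 mice was 0.42 (p = 0.070 by permutation within stages) and Spearman's rho was 0.49 (p = 0.016, 100000 permutations, 1 relation computed). Without adult mouse 3 and involuting mouse 1, the farthest from the median of miR-103-3p, r was 0.40, and with size factors it was 0.22. Within the stages r was 0.21 in adult, 0.72 in pregnant, 0.50 in lactating and 0.63 in involuting mice, and the lowest exact permutation p of these was 0.11.

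The cell make-up of the gland changed at the same time, and in whole tissue fewer cells of a type and less RNA per cell cannot be told apart. The summed level of 6 epithelial markers (miR-141-3p, miR-205-5p, miR-429-3p and the 3p arms of miR-200a, miR-200b and miR-200c), none of them with a stage mean of 0, was 15083 to 21387 RPM in adult, 49216 to 64031 in pregnant, 113795 to 133198 in lactating and 24194 to 78695 in involuting mice. Within it miR-205-5p, a miRNA of basal cells, went against the sum, with log2 fold changes of -1.57 from pregnancy to lactation (adjusted p = 9.0e-06) and 2.06 from lactation to involution (adjusted p = 1.5e-07). From adult to pregnant mice the epithelial sum rose from a median of 16563 to 58513 RPM. There the paralogs did not pass the test with RPM, while with size factors miR-103-3p rose by 0.37 (adjusted p = 0.0060) and miR-107-3p did not pass it. The 5 leukocyte markers had medians of 45049.7 RPM in adult, 19403 in pregnant, 4810 in lactating and 17217 in involuting mice, the reverse of the paralogs in lactation. Stromal markers (5 miRNAs) had medians of 177497, 199579.8, 160808 and 293292 RPM at these stages. The sum did not stand for all 5, since from adult to pregnant mice miR-143-3p rose by 0.66 while miR-199a-3p, miR-199a-5p and miR-214-3p fell by 0.69, 0.77 and 1.03. From adult to involuting mice these 3 were also lower with RPM, while miR-143-3p and miR-145a-5p were higher. With size factors miR-199a-5p did not pass the test there (-0.27, adjusted p = 0.14). Skeletal muscle markers (4 miRNAs) had medians of 11359.6, 444, 2312 and 274 RPM, and endothelial markers (2 miRNAs) of 15626 to 18470.3 RPM. Red blood cell markers (4 miRNAs) had medians of 1213, 531, 995 and 867 RPM. Among them miR-144-3p rose by 1.56 in lactation (adjusted p = 1.1e-05) and fell by 1.97 in involution (adjusted p = 3.1e-07). With RPM miR-451a did not pass the test in either comparison, but with size factors it rose by 0.79 in lactation (adjusted p = 0.011). miR-144-5p did not pass it in either comparison on either scale. miR-486a-5p went against miR-144-3p in involution, where it rose by 0.87 with RPM (adjusted p = 0.013), and did not pass the test in lactation (0.16, adjusted p = 0.66). The part of these shifts in the levels of miR-103-3p and miR-107-3p was not tested, and no list of adipocyte markers was used.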

How the data were processed

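Small RNA was extracted from powdered frozen glands with the mirVana kit, made into libraries with the QIAseq miRNA kit and sequenced, and the authors assigned the reads with QuickMIRSeq to miRBase 22. The submitters' processing notes also name Trimmomatic 0.36, cutadapt, FastQC, MultiQC and the build GRCm38. The authors deposited RPM for 1009 miRNAs in 24 libraries. Whether molecular identifiers were counted is not given in the sources used here. Dividing by the smallest step of a library turned 100% of its RPM into whole numbers of reads (within 0.01 RPM), from which the depths were summed. A count of 0 allows 2.57 to 4.54 RPM (3 reads, counting error only). In 60 pairs of libraries of the same stage none were alike within sampling noise. Nothing states that the mice of a stage came from separate litters or days.

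Groups were taken from the labels. limma 3.58.1 (lmFit, eBayes with trend) in R 4.3.3 was fitted to log2(RPM + 1) over all 24 libraries, for the 544 miRNAs whose mean reached 1 RPM in some stage. The fold changes are on that scale. Calling was tested on simulated data. Ratios and figures were made in python 3.11.15 (scipy 1.17.1, numpy 2.4.6, pandas 2.3.3, matplotlib 3.10.9). Alternatives were pseudocounts of 0.1 and 10, no filter, a filter at 100 RPM, a fit of 12 libraries, a block for the mouse number, size factors, edgeR 4.0.16 (TMM, quasi-likelihood) and DESeq2 1.42.0 (Wald) on the recovered reads, a linear model of the ratio, and each mouse left out.

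Sequences and hairpin positions are RefSeq's for GRCm38.p6, matched by name for 854 of 1009 miRNAs, and host genes are from the GENCODE annotation of GRCm38. Named were the paralogs, their 5p arms, miRNAs with their seed, their sequence kin, the 3 miRNAs most like each, and, of the insulin, fat and lipid list, those with the 2 largest rises and 2 largest falls that passed in each consecutive comparison and reached 100 RPM. miR-33-5p was named after its values were seen. The members and lists were chosen with earlier results of these data known.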

Additional observations from a re-analysis of the deposited data

Results flagged for a closer look

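In 12 groups of 6 mice (both paralogs and their ratio at each stage), the highest or lowest mouse was compared with the others by the size of its gap, a rule that chance alone meets in about 1 group in 20. For miR-103-3p, adult mouse 3 stood apart at 43129 RPM, with a gap to the next mouse of 0.680 of the range of its stage, and pregnant mouse 2 stood apart at 42573 RPM, with a gap of 0.689 of the range. The log2 fold change of miR-103-3p from adult to pregnant mice was 0.19 without adult mouse 3 and 0.07 without pregnant mouse 2, neither past the limma test.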

How the results depend on the processing

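All fold changes of miR-103-3p and miR-107-3p that involve lactation kept their direction and their side of the test under the 21 alternatives tried for each, with lactating against pregnant mice at 0.50 to 0.85 and 0.61 to 0.95 on the log2 scale, involuting against lactating mice at -1.23 to -0.99 and -0.81 to -0.59, and lactating against adult mice at 0.62 to 1.21 and 0.26 to 0.91. Involuting against pregnant mice also kept its calls under the other scalings, with miR-103-3p at -0.39 with size factors, -0.40 with edgeR and -0.38 with DESeq2. The comparisons of adult with pregnant and with involuting mice changed with the scaling. From adult to pregnant mice miR-103-3p rose by 0.37 with size factors, 0.41 with edgeR and 0.36 with DESeq2, and miR-107-3p was at 0.0081 with edgeR, turned in sign. From adult to involuting mice miR-103-3p was no longer past the test, at -0.020 with size factors, 0.0092 with edgeR (turned in sign) and -0.022 with DESeq2, and miR-107-3p turned in sign to 0.11, 0.13 and 0.10, none past the test. With only the 188 miRNAs over 100 RPM tested, miR-107-3p passed at -0.28 (adjusted p = 0.037) from adult to pregnant and -0.27 (adjusted p = 0.046) from adult to involuting mice, where fewer tests were adjusted for.

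Without 1 mouse in turn, miR-107-3p ranged from -0.38 to -0.24 from adult to pregnant mice (past the test without adult mouse 1, pregnant mouse 2 or pregnant mouse 6), from -0.37 to -0.22 from adult to involuting mice (past it without adult mouse 1) and from -0.021 to 0.065 from pregnant to involuting mice (to both sides of 0, none past it). The log2 ratio of the paralogs ranged from 0.36 to 0.50 for pregnant against adult mice and from 0.25 to 0.40 for lactating against adult mice, the latter past the test without adult mouse 1 and in a linear model over 24 libraries (0.30, adjusted p = 0.021).

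The labels number the mice 1 to 6 at each stage, except for adult mice, where the sixth is number 7. Libraries with the same number did not deviate together on average (mean correlation -0.05 over 33 pairs, 13 of them over 0.1, against 0.00 over 183 others). A mean near 0 over pairs that reach down to -0.79 cannot show whether mice with the same number shared a litter or day. With the replicate block in limma no fold change of the paralogs changed its call (miR-103-3p from lactation to involution -1.06). For the ratio the replicate block gave 0.40 (adjusted p = 0.19) for pregnant against adult, -0.43 (adjusted p = 0.094) for involuting against lactating and -0.53 (adjusted p = 0.094) for involuting against pregnant mice by exact sign flips, a design in which 5 or 6 pairs cannot pass after adjustment.

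Numbers of changed miRNAs moved by over 1.5 times under 2 settings. The first tested 188 miRNAs in place of 544, so its counts come from a smaller total and do not show a smaller share. Testing only those over 100 RPM gave 127 in place of 226 from adult to pregnant mice, 132 for 246 from pregnant to lactating, 151 for 255 from lactating to involuting, 164 for 363 from adult to lactating, 123 for 213 from adult to involuting and 101 for 155 from pregnant to involuting mice, and at 2-fold 69 for 150, 67 for 164, 66 for 146, 99 for 273, 59 for 136 and 32 for 77. A pseudocount of 10 gave 88, 82, 79, 152, 69 and 34 at 2-fold.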
